A study of Mus musculus with 12 samples.

Results

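The genes described here are 10 of the 21930 genes counted in mouse eye tissue, namely the endothelin ligands Edn1, Edn2 and Edn3, the endothelin receptors Ednra and Ednrb, the endothelin converting enzymes Ece1 and Ece2, the cytokine gene Lif with its receptor gene Lifr, and Fgf2. They were chosen by name as members of an endothelin, LIF and FGF2 signalling group, because the counts of these libraries had already shown Edn2 at a high level in AL + NaIO3. For this reason the comparisons that hold the AL + NaIO3 libraries are given as descriptions without p-values, and the other comparisons are tested. All libraries came from male, wild type C57BL/6J mice, with 3 mice in each of 4 groups. AL mice ate ad libitum and IF mice were fasted on alternate days, for 12 weeks from the age of 8 weeks before injection. Both diets went on after injection until the experiments ended. A single intraperitoneal injection of 25 mg/kg sodium iodate (NaIO3), an oxidant that damages the retinal pigment epithelium (RPE), or of its vehicle PBS then gave the groups AL + PBS, IF + PBS, AL + NaIO3 and IF + NaIO3, and tissue was taken 7 days later. The agent reaches the eye from the circulation and is not directed to a single cell type.

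Endothelins are short peptides that converting enzymes cut from longer precursors and that act on G protein-coupled receptors, best known for constricting vessels. In the injured retina, photoreceptors are known to make endothelin 2, Müller glia carry the endothelin B receptor, and LIF and FGF2 act as survival signals for photoreceptors. LIF signals through LIFR and the shared co-receptor gp130 to JAK kinases and STAT3, while FGF2 acts on FGF receptors and the MAP kinase cascade. In bulk tissue, fewer cells of a type and less RNA per cell cannot be told apart.

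The 3 ligands differ in the coding bases of the mature peptide, which are shown because reads from the 3 genes must be told apart for the values below. They were found as the 21 codons that follow the endothelin cysteine pattern in GENCODE M39 transcripts, and capitals mark the codons whose amino acid differs from that of Edn2.
Edn1: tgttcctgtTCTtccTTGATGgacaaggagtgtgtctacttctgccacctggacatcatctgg
Edn2: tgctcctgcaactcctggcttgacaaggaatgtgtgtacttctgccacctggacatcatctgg
Edn3: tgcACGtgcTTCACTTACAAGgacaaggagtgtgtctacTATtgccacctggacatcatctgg
Over these 63 bases, Edn1 shared 53 bases and 18 of 21 amino acids with Edn2, and Edn3 shared 48 bases and 15 of 21 amino acids with it. The differences lie mostly near the start of the peptide, while the end of the peptide is encoded alike in the 3 genes.

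The bases before the start sites of Edn2 and Lif are printed because both genes were high together in AL + NaIO3. They come from the RefSeq table for GRCm38.p6, are 250 bases long on the plus strand at chr4:120160956-120161205 and chr11:4257318-4257567, and have a matched motif in capitals.
Edn2: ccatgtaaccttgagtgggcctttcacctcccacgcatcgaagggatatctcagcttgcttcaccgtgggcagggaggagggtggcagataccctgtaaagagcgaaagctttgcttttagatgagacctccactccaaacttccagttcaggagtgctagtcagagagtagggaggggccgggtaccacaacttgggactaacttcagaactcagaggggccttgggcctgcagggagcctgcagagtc
Lif: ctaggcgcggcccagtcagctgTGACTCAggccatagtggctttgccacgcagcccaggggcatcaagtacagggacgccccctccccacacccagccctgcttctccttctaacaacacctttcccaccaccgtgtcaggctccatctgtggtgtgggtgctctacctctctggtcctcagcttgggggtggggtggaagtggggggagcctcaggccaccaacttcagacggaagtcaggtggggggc
Searched on both strands were TTCNNNGAA (STAT), TGANTCA (AP-1) and TTGCNNAA (C/EBP), where N is any base and matches may overlap. Of 32851 windows of this length in the table, 7.02% held TTCNNNGAA, 6.75% held TGANTCA and 9.56% held TTGCNNAA. Among the 14 windows of the 10 genes, the one match was TGACTCA in the Lif window, which begins at position -228 from the start site. The Edn2 and Fgf2 windows held none of these letters.

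Libraries held between 26364665 and 43046950 counts, and levels are given as CPM, the counts of a gene scaled by library size with TMM factors, or as the FPKM values of the authors where genes are compared per length. A count of 3, taken as the floor of detection, was worth between 0.0697 and 0.114 CPM. The labels give the tissue as RPE, choroid and sclera and the methods as eye cups, yet the 16 rod and cone markers summed to between 20600 and 68400 CPM, against between 1680 and 3440 CPM for the 12 RPE markers. Thus rod and cone transcripts were abundant in tissue whose label names no retina. Replicate 3 of AL + NaIO3 stood apart from the other 11 libraries. It had 2120 CPM over 10 melanocyte markers, where the other libraries had between 149 and 363 CPM. Some marker lists share genes, so their sums are not independent. Pmel and Mitf are on both the melanocyte and the RPE list, and Rlbp1 is on both the RPE and the Müller cell and astrocyte list. Fitted differences, list medians and likeness values that rest on replicate 3 of AL + NaIO3 are given with and without it.

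All 10 genes passed the filter on low counts in each comparison. In AL + PBS, Lifr had the highest FPKM of the 10 (9.64 ± 0.265, SD, n = 3), followed by Ece2 (7.60 ± 0.943) and Ece1 (7.36 ± 0.17), whose libraries overlapped. Fgf2 (2.73 ± 1.49), Ednrb (2.52 ± 0.243) and Edn2 (2.28 ± 0.547) formed the next level and did not differ beyond their spread, followed by Edn3 (1.45 ± 0.11) and Edn1 (0.91 ± 0.393). Ednra (0.449 ± 0.0543) and Lif (0.231 ± 0.123) were lowest. In AL + NaIO3 the order was another one, since Edn2 reached 51.2 ± 30.8 FPKM (n = 3), the highest mean of the 10 genes in any group.

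**Figure D1:**
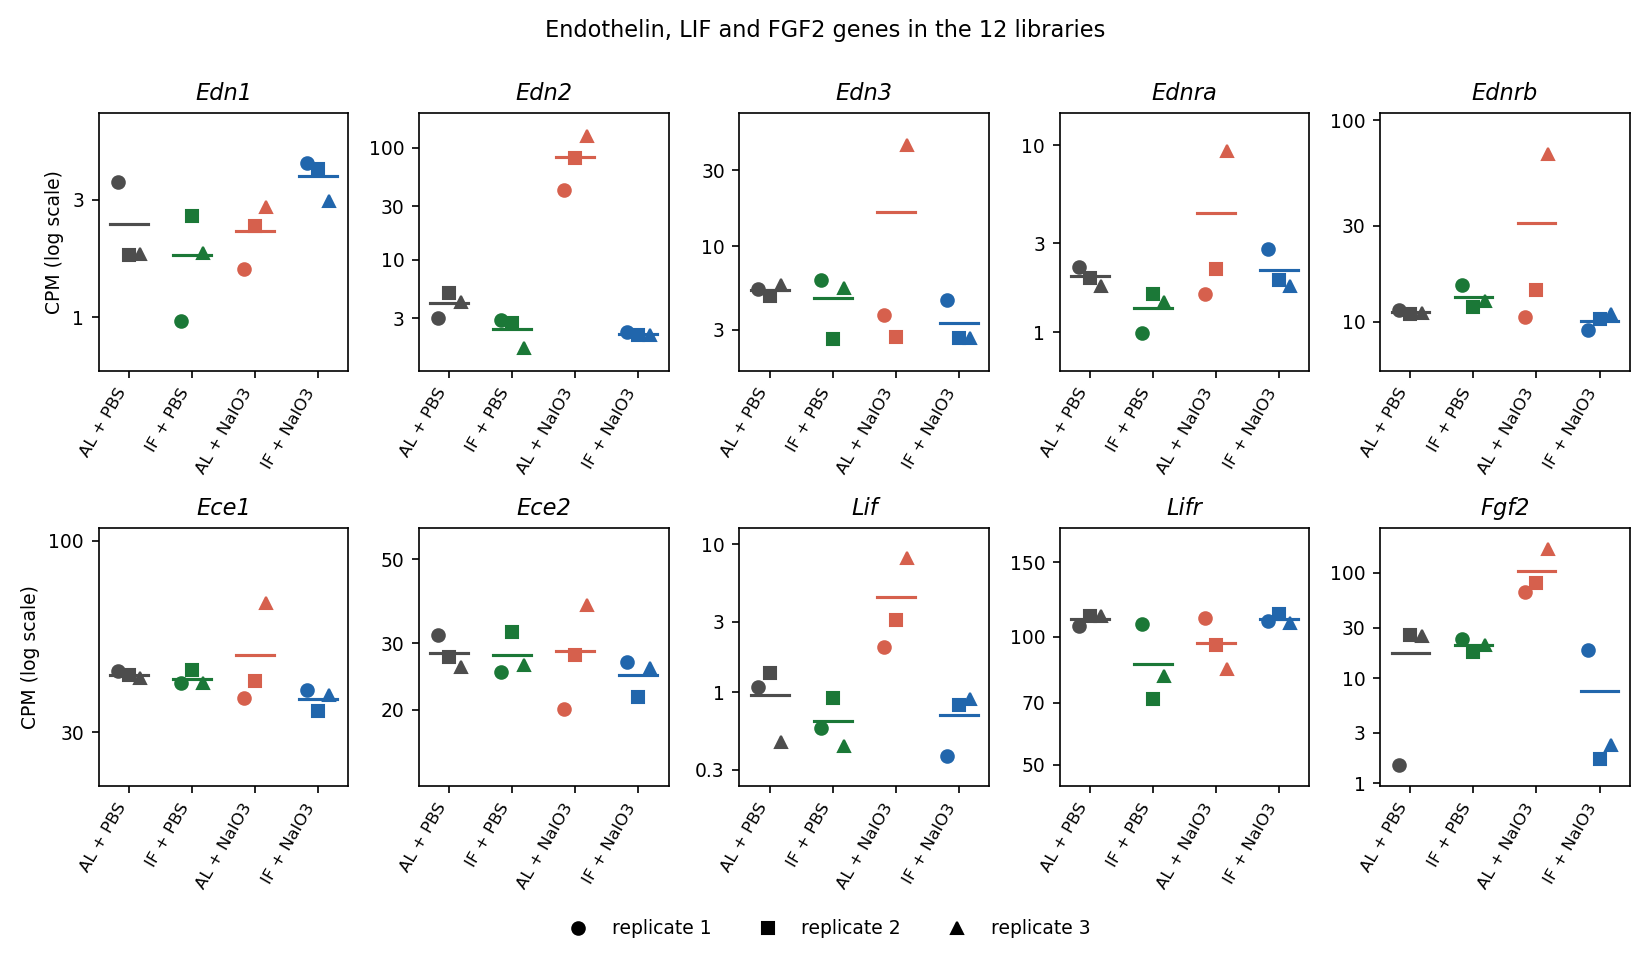
Level of each of the 10 genes in CPM on a log axis, with a point for each library and a line at the mean of the 3 libraries of a group. Edn2, Lif and Fgf2 lie above the other 9 libraries in all 3 AL + NaIO3 libraries, whereas Edn3, Ednra and Ednrb are high in replicate 3 of AL + NaIO3 alone.

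Edn2 (ENSMUSG00000028635, GRCm38 chromosome 4, 120161206 to 120167360) encodes endothelin 2. Its level was 3.01, 5.03 and 4.21 CPM in the 3 AL + PBS libraries and 2.92, 2.71 and 1.62 CPM in IF + PBS. In AL + NaIO3 it was 41.5, 80.3 and 128 CPM, from 1294, 2257 and 4816 counts. In IF + NaIO3 it was 2.24, 2.12 and 2.11 CPM, from 78, 77 and 61 counts. Thus the 3 injected AL libraries were high and the 3 injected IF libraries lay below each AL + PBS library. The lowest AL + NaIO3 library was 8.25 times the highest of the other 9. The fitted difference was 4.36 ± 0.44 (log2, SE) in AL + NaIO3 against AL + PBS and -5.29 ± 0.43 in IF + NaIO3 against AL + NaIO3, and both are descriptions, since Edn2 was known from these comparisons.

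The share of Edn2 among the 3 ligands showed the same pattern. By FPKM, Edn2 made up between 37.8% and 57.9% of the 3 ligands in AL + PBS, between 29.7% and 46.9% in IF + PBS, and between 30.1% and 39.2% in IF + NaIO3. In AL + NaIO3 its share was between 84.7% and 96.6%. The lowest share, 84.7%, was that of replicate 3, in which Edn3 was also high.

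Edn1 (chromosome 13, 42301476 to 42307990) encodes endothelin 1, the main ligand made by vascular endothelium. It did not follow Edn2. Its level was 3.55, 1.79 and 1.81 CPM in AL + PBS, 0.963, 2.58 and 1.83 CPM in IF + PBS, and 1.57, 2.35 and 2.82 CPM in AL + NaIO3. The 3 IF + NaIO3 libraries, at 4.25, 4.02 and 2.98 CPM, lay above each IF + PBS and each AL + NaIO3 library, but replicate 1 of AL + PBS fell among them. Against IF + PBS the difference was 1.07 ± 0.37 (log2, SE), which did not pass the test (edgeR, unadjusted p = 0.0143, adjusted p = 0.24).

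Edn3 (chromosome 2, 174760619 to 174784042) encodes endothelin 3, the ligand to which neural crest cells, melanocytes among them, respond in development. Its level was 5.41, 4.91 and 5.68 CPM in AL + PBS and 6.13, 2.64 and 5.47 CPM in IF + PBS. In AL + NaIO3 it was 3.69, 2.70 and 43 CPM, and in IF + NaIO3 4.59, 2.67 and 2.67 CPM. Replicate 3 of AL + NaIO3 thus had 11.6 times the level of the next library of its group, while replicates 1 and 2 lay below each AL + PBS library. The fitted difference from AL + PBS was 1.65 ± 0.95 (log2, SE) with replicate 3 and -0.74 without it.

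Ednra (chromosome 8, 77663031 to 77724464) encodes the endothelin A receptor, which is typical of vascular smooth muscle. Its level was 2.24, 1.96 and 1.77 CPM in AL + PBS, 0.995, 1.6 and 1.46 CPM in IF + PBS, and 2.78, 1.90 and 1.77 CPM in IF + NaIO3. In AL + NaIO3, replicates 1 and 2 had 1.6 and 2.17 CPM and replicate 3 had 9.30 CPM, 4.29 times the higher of those. The IF + PBS libraries were the low ones, below each AL + PBS and each IF + NaIO3 library.

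Ednrb (chromosome 14, 103814625 to 103844402) encodes the endothelin B receptor, which Müller glia, astrocytes, endothelium and melanocytes are known to carry. It was 11.4, 10.9 and 11.1 CPM in AL + PBS, 15.2, 11.9 and 12.7 CPM in IF + PBS, and 9.09, 10.3 and 10.9 CPM in IF + NaIO3. In AL + NaIO3 it was 10.6, 14.4 and 68.3 CPM, so that replicate 3 was again the high library, at 4.73 times the next. Per length, Ednrb exceeded Ednra in every library, with a median FPKM ratio of 5.59 in AL + PBS, 8.36 in IF + PBS, 6.43 in AL + NaIO3 and 5.35 in IF + NaIO3. Without replicate 3, the difference between AL + NaIO3 and AL + PBS went from 1.5 to 0.17 for Ednrb and from 1.15 to -0.08 for Ednra (log2). In IF + NaIO3 against AL + NaIO3 it went from -1.64 to -0.32 for Ednrb, from -1.04 to 0.18 for Ednra and, among the ligands, from -2.34 to 0.04 for Edn3.

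The converting enzymes varied little. Ece1 (chromosome 4, 137862237 to 137965229) was between 40.8 and 44.4 CPM in the 6 PBS libraries and between 34.3 and 39.1 CPM in IF + NaIO3. In AL + NaIO3 it was 37.2, 41.4 and 67.8 CPM, with replicate 3 alone above the PBS range. Ece2 (chromosome 16, 20629828 to 20646485) was between 25.1 and 32.2 CPM in the PBS libraries, 20.1, 27.9 and 37.9 CPM in AL + NaIO3, and between 21.6 and 26.7 CPM in IF + NaIO3. Both enzymes were close in level per length, with a ratio of Ece1 to Ece2 FPKM between 0.855 and 1.24 over the 12 libraries. The gene Gm49333 overlaps Ece2 in the annotation.

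Lif (chromosome 11, 4257557 to 4272514) encodes leukemia inhibitory factor, which Müller glia are known to release after photoreceptor injury. Its counts were low, between 13 and 57 in the 9 libraries outside AL + NaIO3. Its level was 1.09, 1.35 and 0.460 CPM in AL + PBS, 0.578, 0.914 and 0.435 CPM in IF + PBS, and 0.373, 0.827 and 0.901 CPM in IF + NaIO3. In AL + NaIO3 it was 2.02, 3.09 and 8.13 CPM, from 63, 87 and 306 counts. The 3 AL + NaIO3 libraries lay above the other 9, the lowest of them at 1.5 times the highest of those. The fitted difference from AL + PBS was 2.20 ± 0.64 (log2, SE) and was 1.39 without replicate 3, and that of IF + NaIO3 from AL + NaIO3 was -2.68 ± 0.63 with replicate 3 and -1.88 without it. From FPKM in limma, with the 6 libraries, the difference of IF + NaIO3 from AL + NaIO3 was -1.82.

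Lifr (chromosome 15, 7090614 to 7197489) encodes the receptor chain that binds LIF. It was 106, 112 and 112 CPM in AL + PBS, 107, 71.3 and 80.8 CPM in IF + PBS, 111, 95.7 and 84.2 CPM in AL + NaIO3, and 109, 113 and 108 CPM in IF + NaIO3. The low libraries were replicates 2 and 3 of IF + PBS and replicate 3 of AL + NaIO3, and the receptor was not high where its ligand was. The ratio of Lifr to Lif FPKM was accordingly between 3.14 and 23.8 in AL + NaIO3, and between 28.4 and 106 in the other 9 libraries.

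Fgf2 (chromosome 3, 37348346 to 37410108) encodes basic fibroblast growth factor. It was 66.3, 79.9 and 169 CPM in AL + NaIO3, which lay above the other 9 libraries, the lowest at 2.58 times the highest of those. In AL + PBS it was 1.5, 25.7 and 25 CPM, in IF + PBS 23.3, 17.6 and 20.6 CPM, and in IF + NaIO3 18.4, 1.68 and 2.29 CPM. These values fell into separate levels within AL + PBS and within IF + NaIO3. The fitted difference in AL + NaIO3 against AL + PBS was 2.61 ± 0.84 (log2, SE). It was 2.068 without replicate 3 of AL + NaIO3 and 2.065 without replicate 1 of AL + PBS. In IF + NaIO3 against AL + NaIO3 the fitted difference was -3.82 ± 0.90. There it was -3.29 without replicate 3 of AL + NaIO3 and -5.75 without replicate 1 of IF + NaIO3. From FPKM in limma, IF + NaIO3 against AL + NaIO3 gave -3.12.

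The 3 libraries with the lowest Fgf2 counts also had another gene length behind them. Dividing the library-scaled counts by the deposited FPKM gives the length used for a gene in a library, and for Fgf2 this was between 1370 and 1538 bases in replicate 1 of AL + PBS and replicates 2 and 3 of IF + NaIO3, against between 6385 and 7239 bases in the other 9 libraries. Among 13254 genes with at least 30 counts in each library, the length differed between libraries by at least 2-fold for 160 genes (1.21%), and by as much as for Fgf2 for 6 genes including it. The FPKM of Fgf2 was 1.01, 1.02 and 1.63 in these 3 libraries and between 2.47 and 3.68 in the 6 other libraries outside AL + NaIO3, so that the gap was smaller than in counts. The part of the length in the low counts was not tested. In AL + NaIO3 the FPKM was 9.05, 12.5 and 28.2, and the lowest of these was 2.46 times the highest of the other 9. The length used for Lif also varied, between 2481 and 5049 bases.

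Nudt6 overlaps Fgf2 on the opposite strand. It was between 2.05 and 5.26 CPM over the 12 libraries and between 3.72 and 5.26 CPM in AL + NaIO3. Whether strand was used in counting is not given in the sources used here, so reads shared by Fgf2 and Nudt6 may be uncertain.

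**Figure D2:**
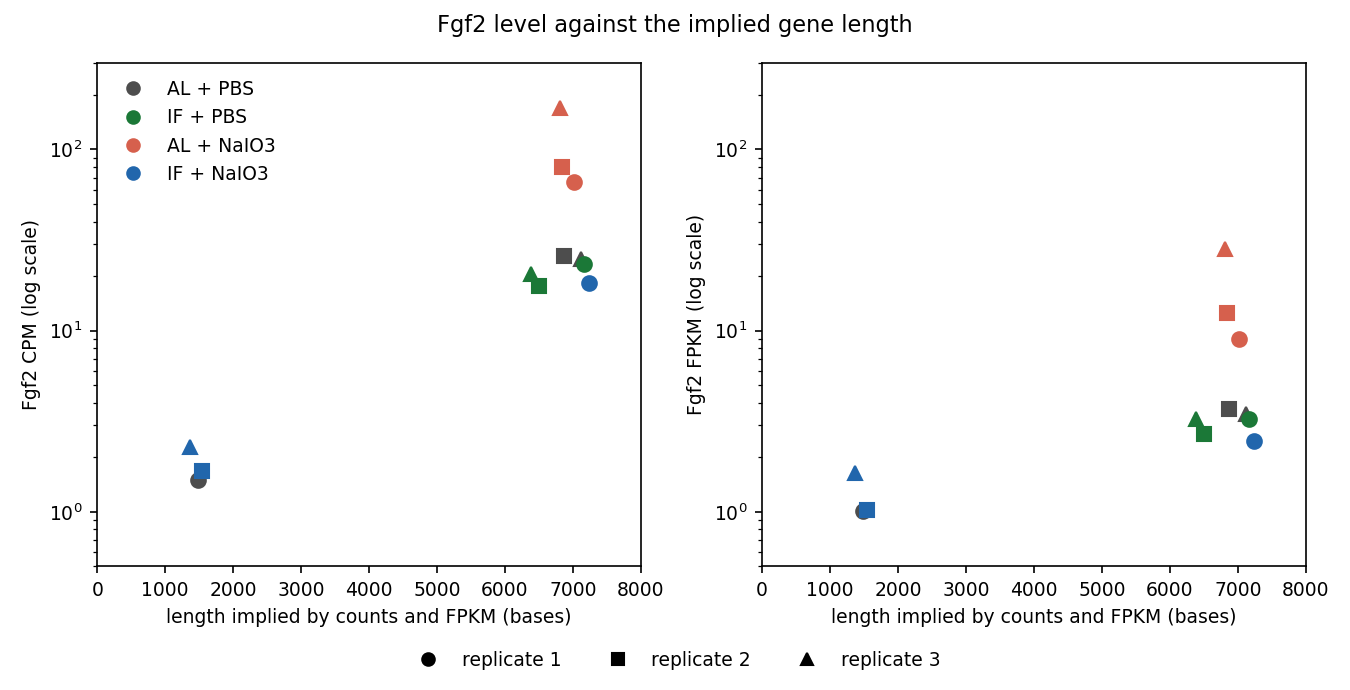
Fgf2 level on a log axis, as CPM on the left and as FPKM on the right, against the gene length in bases implied by counts and FPKM, with a point for each library. The 3 libraries with a length between 1370 and 1538 bases have between 1.5 and 2.29 CPM, and the 3 AL + NaIO3 libraries, with the long length, have between 66.3 and 169 CPM.

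As a count, 3 of the 10 genes (Edn2, Lif and Fgf2) had all 3 AL + NaIO3 libraries above the other 9 libraries, a pattern that 4.41% of the 15970 genes tested in 12 libraries had. In AL + NaIO3 against AL + PBS these genes were the 3 whose groups did not overlap and that were higher (9.67% of 15612 genes), and none was lower without overlap (8.63%). In IF + NaIO3 against AL + NaIO3 they were the 3 lower without overlap (10.1% of 15648 genes), and Edn1 was higher (8.86%). By the edgeR call (adjusted p under 0.05, with at least a 1.5-fold difference), 1 of the 10, Edn2, was called in each of these comparisons, where 0.0769% and 0.0383% of all genes were called. Nothing is read from these counts, because the genes were chosen with them known.

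In AL + NaIO3 against AL + PBS, the Edn2 call was lost when any AL + PBS library or replicate 2 of AL + NaIO3 was left out. Over all genes, 0 were called without an AL + PBS library and 5 without that replicate. In IF + NaIO3 against AL + NaIO3, the Edn2 call was lost when any IF + NaIO3 library or replicate 2 of AL + NaIO3 was left out. Over all genes, at most 1 was called in each of these fits. Without replicate 3 of AL + NaIO3, Edn2 stayed called in both comparisons, among 90 genes in the former and 75 in the latter. The difference itself stayed between 3.89 and 4.67 in the former and between -5.60 and -4.83 in the latter (log2). With DESeq2, Edn2 and Lif were called in the former, where 2.64% of all genes were (411 genes), and Edn2, Lif and Fgf2 in the latter, where 3.06% were (478 genes).

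The diet by injection interaction, fitted on the 12 libraries, asks whether the NaIO3 difference was another one under IF than under AL. For Edn2 it was -4.50 ± 0.51 (log2, SE), for Fgf2 -4.04 ± 1.25 (between -5.98, without replicate 1 of IF + NaIO3, and -3.51, without replicate 1 of AL + PBS) and for Lif -2.06 ± 0.83 (-1.28 without replicate 3 of AL + NaIO3). The sign is that of a smaller NaIO3 difference under IF. Edn1 (1.15 ± 0.58) and Lifr (0.53 ± 0.20) had the opposite sign. The values of Edn3 and Ednrb rested on replicate 3 of AL + NaIO3, without which they went from -2.15 to 0.22 and from -1.87 to -0.56. Of the 10 genes Edn2 was called, as were 0.0313% of the 15970 genes, again as a description.

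Replicate 3 of AL + NaIO3 was the highest of the 12 libraries for 8 of the 10 genes, all but Edn1 and Lifr, where 26.1% of 15970 genes had it highest. It was at least 2-fold above the higher of replicates 1 and 2 for 5 genes (Edn3, Ednra, Ednrb, Lif and Fgf2), against 8.02% of genes. For Edn2 it was 1.59 times the higher of replicates 1 and 2. Replicates 1 and 2 alone put Edn2, Lif and Fgf2 above the other 9 libraries, and left Edn3, Ednra, Ednrb and Ece1 within their range.

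Markers of other cell types moved with this library. In replicate 3, each of the 10 melanocyte markers was highest of the 12 libraries, as were 9 of 10 fibroblast and sclera stroma markers, 11 of 12 vascular endothelium markers and 9 of 11 smooth muscle and pericyte markers. Its stroma markers summed to 1570 CPM against between 244 and 426 CPM in the other libraries, its vascular endothelium markers to 566 CPM against between 207 and 271 CPM, and its smooth muscle markers to 480 CPM against between 206 and 259 CPM. No marker of these lists was at 0 in a whole group. Their part in the levels of Edn3, Ednra, Ednrb and Ece1 was not tested.

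Other markers were high in each AL + NaIO3 library, as Edn2, Lif and Fgf2 were. The 12 macrophage and microglia markers summed to between 154 and 444 CPM there and to between 55.7 and 78.6 CPM in the other 9 libraries. The 12 vascular endothelium markers summed to 271, 271 and 566 CPM against between 207 and 247 CPM. In the fit that includes replicate 3, the only fit given for them, 12 of 12 had a higher value than in AL + PBS. The 12 Müller cell and astrocyte markers, Gfap among them, summed to between 6440 and 9540 CPM against between 5290 and 6230 CPM. Rod and cone markers did not stay together within the group, at 68400, 40100 and 20600 CPM in replicates 1, 2 and 3 against between 53000 and 65000 CPM in the other 9 libraries, while Edn2 was 41.5, 80.3 and 128 CPM in the same order. RPE markers were at 1680, 1750 and 2430 CPM in order of size, against between 1790 and 3440 CPM elsewhere. Neutrophil markers reached between 4.20 and 7.17 CPM, against at most 4.02 CPM elsewhere, with 2 of 8 at 0 in the group. Corneal and conjunctival markers were at 56.1, 530 and 37.2 CPM in replicates 1, 2 and 3, so that replicate 2 stood above every other library, against at most 128 CPM in the other groups. Their part in the levels of Edn2, Lif and Fgf2 was not tested.

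**Figure D3:**
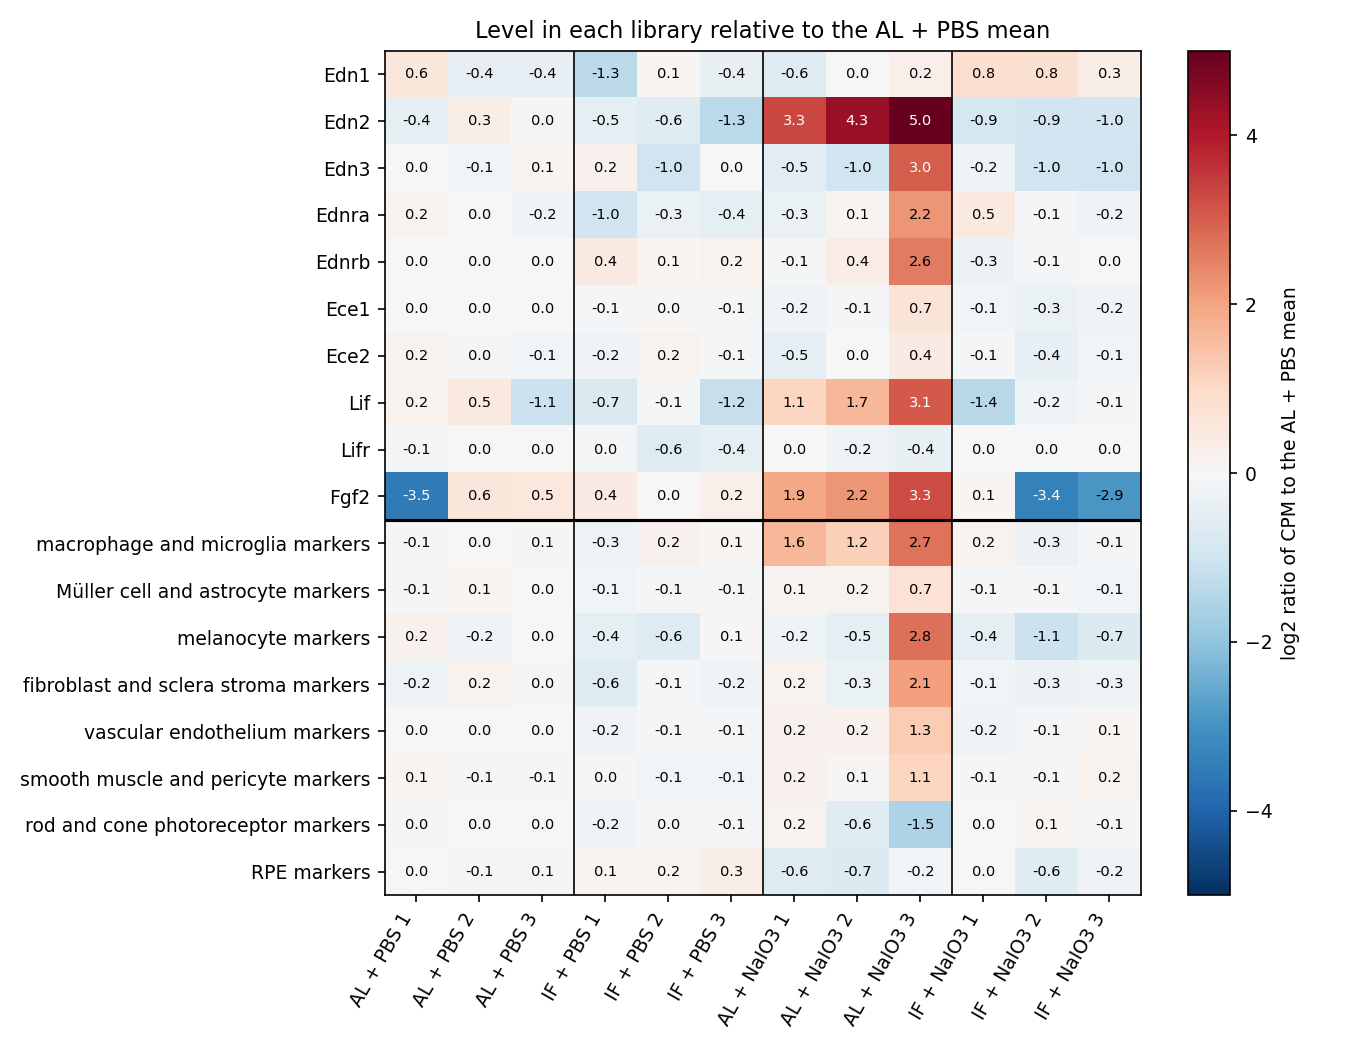
Level of the 10 genes and summed level of 8 marker lists in each library, as the log2 ratio of CPM to the AL + PBS mean, with red for higher and blue for lower and the ratio printed in each cell. Edn2 is high in each AL + NaIO3 library, at 41.5, 80.3 and 128 CPM, while melanocyte and stroma markers are high in replicate 3 alone, with Edn3, Ednra and Ednrb.

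Genes whose pattern over the 12 libraries was most like that of Edn2 were ranked by Pearson's r of log2 CPM among 15969 genes, as a description. Highest were Cd44 (r = 0.977), a hyaluronan receptor, Gfap (0.968), the intermediate filament of reactive astrocytes and Müller glia, Tnfaip8l2 (0.967), a regulator of immune cells, Serpina3n (0.959), a serine protease inhibitor, and Cd8b1 (0.956), a chain of the CD8 co-receptor of T cells. Cd44 was between 46.9 and 108 CPM in AL + NaIO3 against between 11.8 and 18.5 CPM elsewhere, and Serpina3n between 71.2 and 424 CPM against between 5.25 and 12 CPM. Cd8b1 was between 0.706 and 0.983 CPM in AL + NaIO3 and below the floor in the other 9 libraries, with at most 0.0551 CPM. It could pass the filter on low counts only through AL + NaIO3, so its high r follows from that filter. The value of r rests on the gap between AL + NaIO3 and the rest, since by ranks (Spearman's rho) it was 0.86 for Cd44 but 0.615 for Gfap. Of the other 9 genes, Lif had the highest r (0.899, rank 98, and 0.835 without replicate 3 of AL + NaIO3), followed by Fgf2 (0.74, and 0.642 without it). The values of Ednrb (0.648) and Ednra (0.588) rested on replicate 3, without which they were 0.266 and 0.118, as did those of Ece1 (0.544, and -0.014) and Edn3 (0.46, and -0.273). Edn1 had -0.119, and -0.255 without that library, and Lifr went from -0.123 to 0.12.

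The effect of fasting without injury is the comparison of IF + PBS with AL + PBS. None of the 10 genes passed the edgeR test, where 0.0% of 15361 genes did. At an unadjusted p under 0.05 there were 2 of the 10 (Edn2 and Lifr), a share near the 17.1% of all genes. By DESeq2, which gave 9 of the 10 an adjusted p (all but Lif), 189 genes (1.33%) were called and none of the 10 was among them. Edn2 was lower by a log2 difference of -0.76 ± 0.31 (SE; edgeR adjusted p = 0.256), with each IF + PBS library below each AL + PBS library. Lifr was at -0.35 ± 0.14 (adjusted p = 0.247), with overlap through replicate 1 of IF + PBS, and without that replicate it was at -0.54 with an adjusted p of 0.011, short of the fold threshold, where 472 genes were called.

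Without overlap between the groups, Ednrb was higher in IF + PBS (1 of 10, against 10.6% of all genes) and Edn2 and Ednra were lower (2 of 10, against 11.2%). The differences of the receptors were 0.25 ± 0.15 for Ednrb (log2, SE; edgeR adjusted p = 0.401) and -0.56 ± 0.33 for Ednra (adjusted p = 0.402). Fgf2 was at 0.23 ± 0.65 and turned to -0.31 without replicate 1 of AL + PBS, the library with the short length. Markers of the outer eye moved with this comparison, as corneal and conjunctival markers summed to between 7.44 and 17.8 CPM in IF + PBS against between 32.0 and 64.3 CPM in AL + PBS, and skeletal muscle markers to between 28.4 and 112 CPM against between 146 and 291 CPM. Lower fitted values were also found for 9 of 10 fibroblast and sclera stroma markers (median log2 difference -0.68) and 9 of 10 melanocyte markers (-0.31). The same held for 6 of 7 lens markers (-2.88), whose sum was 290 CPM in the highest AL + PBS library and 8.38 and 9.73 CPM in the others. Rod and cone markers were lower in 13 of 16 genes, with sums between 53000 and 58300 CPM against between 59100 and 62300 CPM. RPE markers had higher sums, between 2990 and 3440 CPM against between 2590 and 2840 CPM. By gene, 7 of 12 RPE markers had higher and 5 had lower fitted values (median log2 difference 0.16). Their part in these values was not tested.

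The effect of NaIO3 in fasted mice is the comparison of IF + NaIO3 with IF + PBS. None of the 10 genes passed the edgeR test, where 0.0% of 15305 genes did, and none was among the 80 genes (0.737%) called by DESeq2, which gave 5 of the 10 an adjusted p. At an unadjusted p under 0.05 there were 3 of the 10 (Edn1, Ednrb and Lifr), against 15.2% of all genes. Edn2, the gene with the largest difference under AL, was at -0.16 ± 0.32 (log2, SE; edgeR adjusted p = 0.842), and Lif at 0.12 ± 0.54 (adjusted p = 0.928). The Lif value rests on between 13 and 30 counts per library, and its sign depended on which library was left out.

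Without overlap, 3 genes were higher in IF + NaIO3 than in IF + PBS (Edn1, Ednra and Lifr, against 10.1% of all genes) and 2 were lower (Ednrb and Ece1, against 10.9%). Lifr was at 0.35 ± 0.14 (log2, SE; edgeR adjusted p = 0.284), Ednra at 0.68 ± 0.36 (adjusted p = 0.385), Ednrb at -0.39 ± 0.17 (adjusted p = 0.307) and Ece1 at -0.18 ± 0.10 (adjusted p = 0.419). These groups share IF + PBS with the comparison before, where Lifr and Ednra were low and Ednrb was high. RPE markers were also lower, between 1790 and 2640 CPM against between 2990 and 3440 CPM in IF + PBS, and melanocyte markers were between 149 and 232 CPM against between 202 and 330 CPM. Markers of the outer eye had higher values, as corneal and conjunctival markers summed to between 17.9 and 128 CPM against between 7.44 and 17.8 CPM in IF + PBS, and 8 of 8 skeletal muscle markers had a higher fitted value (median log2 difference 0.91). Rod and cone markers had higher fitted values in 13 of 16 genes (median 0.17), with sums between 58100 and 65000 CPM against between 53000 and 58300 CPM. The part of these markers in the values of the 10 genes was not tested.

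Fgf2 was at -1.44 ± 0.69 in IF + NaIO3 against IF + PBS (log2, SE; edgeR adjusted p = 0.355). From FPKM in limma, with the 6 libraries, the Fgf2 difference was -0.88 (adjusted p = 0.25). Leaving out replicate 1 of IF + NaIO3, the library with the long Fgf2 length, gave -3.38 ± 0.24 and an adjusted p of 0.00119, the only call of any of the 10 genes when 1 library was left out of this comparison (0.0193% of 15535 genes were called without that library). Without replicate 1 of IF + PBS, Lifr was at 0.54 with an adjusted p of 0.0323, short of the fold threshold, where 197 genes were called.

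Injected IF mice were also set against vehicle-injected AL mice, which asks how far IF + NaIO3 lay from AL + PBS. None of the 10 genes was called by edgeR, where 0.0454% of 15419 genes were, and none was among the 83 genes (0.596%) called by DESeq2. DESeq2 gave 8 of the 10 an adjusted p, all but Lif and Fgf2. At an unadjusted p under 0.05 there were 3 of the 10 (Edn2, Edn3 and Ece1), against 12.2% of all genes. The same 3 were lower without overlap (9.42% of all genes), and none was higher without overlap (8.39%). Edn2 was at -0.92 ± 0.27 (log2, SE; adjusted p = 0.257), Edn3 at -0.69 ± 0.26 (adjusted p = 0.346) and Ece1 at -0.22 ± 0.09 (adjusted p = 0.361). Fgf2 was at -1.22 ± 0.91 (adjusted p = 0.615) and Edn1 at 0.65 ± 0.32 (adjusted p = 0.44). Fgf2 was at -3.14 without replicate 1 of IF + NaIO3, and between -1.76 and -0.74 with each other library left out. From FPKM in limma it was -0.53. Melanocyte markers had lower values in 9 of 10 genes (median log2 difference -0.79), as had fibroblast and sclera stroma markers in 9 of 10 (median -0.61). Lower values were also found for skeletal muscle markers in 8 of 8 (median -0.75), lens markers in 7 of 7 (median -1.61) and RPE markers in 10 of 12. The lens value includes the AL + PBS library with a lens sum of 290 CPM. Vascular endothelium markers had higher fitted values in 9 of 12 genes (median 0.37), as had corneal and conjunctival markers in 6 of 8 (median 0.48). The sums of both lists overlapped between the groups. They were between 208 and 247 CPM against between 229 and 239 CPM for vascular endothelium. For corneal and conjunctival markers they were between 17.9 and 128 CPM against between 32.0 and 64.3 CPM. The part of these lists in the values of the 10 genes was not tested. This comparison shares libraries with each of the others, so its values are no separate evidence.

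**Figure D4:**
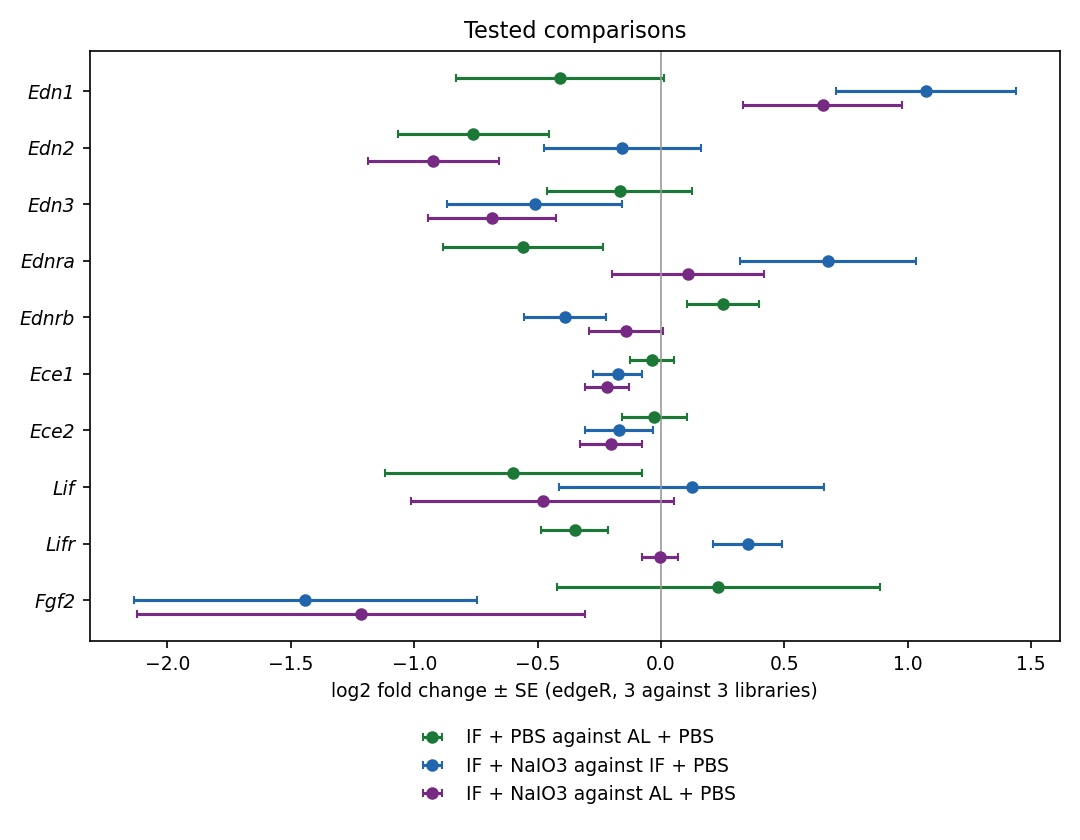
Fitted log2 fold change of the 10 genes with its standard error in the 3 comparisons without AL + NaIO3, each of 3 against 3 libraries in edgeR. No gene passed the test, and the lowest values are those of Fgf2, at -1.44 and -1.22 from counts in the comparisons with IF + NaIO3 (-0.88 and -0.53 from FPKM in limma).

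Around these genes, 5 lists of pathway genes were counted, and no gene of them was called in any of the 6 comparisons by edgeR. In IF + NaIO3 against IF + PBS, the largest differences of the lists were those of Plcb2 (0.36 ± 0.46, log2, SE), a phospholipase C downstream of the endothelin receptors, Cntf (-0.57 ± 0.39), a cytokine that shares LIFR with LIF, Junb (0.43 ± 0.16), an AP-1 subunit, Fgfr4 (-0.61 ± 0.40), an FGF receptor, and Ntf3 (-0.43 ± 0.65), a neurotrophin. Their edgeR adjusted p-values were between 0.260, for Junb, and 0.777, for Ntf3. List medians in this comparison were between -0.08 and 0.06, against 0.00 over all genes tested.

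In AL + NaIO3 against AL + PBS, 9 of 10 tested gp130 cytokine and receptor genes had higher values, with a median log2 difference of 1.00, as did 17 of 21 genes of the JAK-STAT3 relay and its feedback, with a median of 0.33, against a median of 0.01 over all genes tested. Without replicate 3 of AL + NaIO3 these were 8 of 10 with a median of 0.56 and 16 of 21 with a median of 0.24. Only 9 of the 10 gp130 genes passed the filter on low counts in the comparisons without AL + NaIO3. The gene tested only with AL + NaIO3 passed through that group, so its direction follows from the filter. In IF + NaIO3 against AL + NaIO3, which shares the AL + NaIO3 libraries, 9 of 10 and 18 of 21 had lower values, with medians of -1.09 and -0.48 against -0.01, and without replicate 3 these were 9 of 10 with -0.71 and 15 of 21 with -0.28. The 21 FGF receptor and feedback genes had medians of -0.04 and -0.02 in these comparisons (-0.17 and 0.20 without replicate 3), and the 18 tested genes of endothelin processing and coupling 0.10 and -0.15 (0.10 and -0.06). Of the 20 other retinal survival factors, 15 had higher values in AL + NaIO3 than in AL + PBS (median 0.28), but 10 of 20 without replicate 3 (median 0.07). Lower values in IF + NaIO3 than in AL + NaIO3 were found for 14 of the 20 (median -0.14), and 12 without replicate 3 (median -0.08).

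Of 91 pathway genes tested in 12 libraries, 12 had all 3 AL + NaIO3 libraries above the other 9 libraries, against 4.41% of all 15970 genes, and these were singled out after their values were seen. They included the gp130 genes Cntf, Osmr and Il6ra, 6 of 21 JAK-STAT3 genes (Stat3, Socs3, Ptpn6, Bcl3, Junb and Mcl1) and 1 of 19 endothelin genes (Plcb2), with 0 of 21 FGF genes and 0 of 20 other retinal survival factors. A gp130 gene of the 91 passed the filter on low counts only where AL + NaIO3 was included, so its place follows from that filter. Socs3, which STAT3 switches on and which restrains the receptor, was 16.7, 20.1 and 52.7 CPM in AL + NaIO3 and between 3.88 and 6.05 CPM in the other 9 libraries. Stat3 itself was 89.1, 124 and 204 CPM against between 53.9 and 66.6 CPM. Osmr, the receptor chain for oncostatin M, was 23.2, 31.0 and 79.1 CPM against between 10.3 and 13.8 CPM. Bcl3, a partner of NF-kappa B, was 7.51, 8.82 and 21.1 CPM against between 0.160 and 1.49 CPM. Il6st, which encodes the gp130 chain that LIFR pairs with, was 102, 112 and 226 CPM in AL + NaIO3 against between 77.7 and 104 CPM elsewhere, so that its groups overlapped.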

How the data were processed

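Poly-A RNA of 12 mouse libraries, 3 per group, was sequenced by the authors with 150-bp reads. The authors deposited raw counts per gene, and FPKM values that divide counts by gene length and library reads. The submitters' processing notes list HISAT2, StringTie, DESeq2, edgeR and GRCm39, while the deposited coordinates matched GRCm38 for 10 of 10 genes. The counting tool and its use of strand are not given in the sources used here. The authors' own table of 1 comparison was not used, and 0 sample columns were left unassigned. Of 21930 genes, 3003 had 0 counts throughout. Library totals of 26364665 to 43046950 counts set the precision of low genes, and no replicate pair was a duplicate.

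Counts were tested in R 4.3.3 with edgeR 4.0.16 (TMM, filterByExpr, quasi-likelihood test, 6 libraries per comparison and 12 for the interaction, Benjamini-Hochberg adjustment over all genes). A call needed an adjusted p under 0.05 and, outside the interaction, at least a 1.5-fold difference. CPM used the TMM factors of the 12 libraries, and log2 CPM a prior count of 2. Alternatives were DESeq2 1.42.0, its size factors in edgeR, upper quartile scaling, no filter, a joint fit of 12 libraries, a minimum of 10 counts in each library, no fold threshold, the replicate number as a block, each library left out and, added after the data had been seen, limma 3.58.1 on log2(FPKM + 0.1) and list medians without replicate 3 of AL + NaIO3.

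The 10 genes and all lists were chosen with earlier results of these data known. All 10 are described. Pathway genes are named where called, or where they had the largest difference of their list in IF + NaIO3 against IF + PBS, and the 5 genes most like Edn2 are named. Others were named after their values were seen, and 1 gene of the lists is not reported here by name. The replicates are separate mice, so p-values measure the spread between mice.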

Additional observations from a re-analysis of the deposited data

Results flagged for a closer look

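The NaIO3 difference of Edn2 was another one in IF than in AL mice by the interaction of diet and injection, at -4.50 (log2) with a standard error of 0.51 over the 12 libraries (edgeR). In single libraries, Edn2 was 41.5, 80.3 and 128 CPM in AL + NaIO3 and 2.24, 2.12 and 2.11 CPM in IF + NaIO3. The gene was chosen with this pattern known, so the value is a description. With each library left out in turn, it lay between -4.84 and -4.06.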

How the results depend on the processing

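Of the counts of genes called among the 10, none changed under the alternatives other than DESeq2 and leaving out a library. DESeq2 called 2 (Edn2 and Lif) in AL + NaIO3 against AL + PBS and 3 (Edn2, Lif and Fgf2) in IF + NaIO3 against AL + NaIO3, where edgeR called 1 in each. With each library left out, the count was between 0 and 1 in both comparisons, and between 0 and 1 in IF + NaIO3 against IF + PBS, where Fgf2 was called without replicate 1 of IF + NaIO3. Over all genes, DESeq2 called 411 and 478 genes in these comparisons where edgeR called 12 and 6, and 215 where edgeR called 5 for the interaction. A fit of all 12 libraries called 177 and 190. The cause was not tested.

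Small differences changed sign. Ece2 in IF + PBS against AL + PBS was at 0.033 from FPKM in limma and between -0.14 and 0.059 with each library left out. In the same comparison, Fgf2 lay between -0.31 and 0.63 and Edn3 between -0.40 and 0.12. In IF + NaIO3 against IF + PBS, Edn2 lay between -0.38 and 0.0032 and Lif between -0.094 and 0.46. In IF + NaIO3 against AL + PBS, Ednra lay between -0.12 and 0.23 and Lifr between -0.030 and 0.011, and Lifr was at 7.03e-05 with no filter. None of these was called. The correlation of same-numbered libraries was between -0.101 and 0.138. With 3 libraries per group, these values cannot settle whether replicate numbers paired the mice. With the replicate block, 1 of the 10 genes was called in each comparison with AL + NaIO3 and 0 in the others, as without it. Edn3 moved with the block, from 1.65 to 0.43 (log2) in AL + NaIO3 against AL + PBS. In IF + NaIO3 against AL + NaIO3 it moved from -2.34 to -1.10. Over all genes, the block called 28 in both of these comparisons, where the fit without it called 12 and 6. The block called 13 in IF + NaIO3 against AL + PBS, where the fit without it called 7. In IF + PBS against AL + PBS it called 5 genes, where the fit without it called 0. Depth limits Lif, with as few as 13 counts in a library.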
